A study of Homo sapiens with 102 samples.

Results

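The genes examined here were 37 translation initiation factor genes, taken from a count table of 24965 genes by matching Ensembl identifiers to their symbols, and all 37 had a row of their own. The libraries came from Combi-Seq, in which single K562 cells are enclosed in picolitre droplets together with a pair of drugs, and the barcodes of both drugs are ligated to prime reverse transcription. K562 is an established human cell line from chronic myeloid leukaemia, driven by BCR-ABL. In each of 2 screens, called dT and Bio after their barcoding modes, DMSO, Imatinib (an inhibitor of BCR-ABL), Trametinib (an inhibitor of MEK) and YM115 (spelled so in the labels, a survivin inhibitor that the study writes YM155) were combined in 16 ordered pairs with 3 runs each, and cells were incubated for 12 h. DMSO_DMSO droplets were the solvent pair inside a screen, and 3 separate DMSO controls per screen were handled apart from the drug droplets. A library pools the droplets of 1 pair in 1 run, so that fewer cells and less RNA per cell cannot be told apart. The drug named first in a label is called first-listed here, since the labels do not settle which injection source it came from.

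Translation initiation loads the small ribosomal subunit with initiator tRNA, brings it to the capped end of an mRNA and lets it scan to a start codon. The eIF2 complex carries the initiator tRNA and eIF2B recharges it with GTP, while the large eIF3 complex organises the small subunit and eIF1 and eIF5 govern the choice of the start codon. EIF4E binds the cap, EIF4G1 is the scaffold and EIF4A1 and EIF4A2 are helicases that unwind the leader, and EIF4EBP1 is an inhibitor of EIF4E that mTOR signalling switches off. Several genes carry the family name for other work, such as EIF4A3, a core helicase of the exon junction complex, EIF5A, which helps the ribosome through difficult peptide bonds, and EIF6, which keeps the large subunit apart.

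The sequence of a gene decides whether a short read can be assigned to it, so the last 59 coding bases, the length of the mRNA read, are shown for the members on which detection turned. The first set compares the 3 EIF4A helicases (GENCODE release 29, GRCh38, coding strand), with capitals at the 25 positions where they are not all the same.

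EIF4A1, plus strand, chr17:7578428-7578486: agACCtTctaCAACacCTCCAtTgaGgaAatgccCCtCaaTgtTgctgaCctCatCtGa

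EIF4A2, plus strand, chr3:186789211-186789269: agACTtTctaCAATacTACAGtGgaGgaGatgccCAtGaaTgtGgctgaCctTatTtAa

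EIF4A3, minus strand, chr17:80135490-80136045, across an intron: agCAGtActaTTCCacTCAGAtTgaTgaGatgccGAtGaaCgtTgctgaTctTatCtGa

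Of the 59 positions EIF4A1 shared 45 with EIF4A2 and 40 with EIF4A3, and EIF4A2 shared 39 with EIF4A3. The same 59 bases of EIF4A1 were also present, unaltered, in the annotated read-through gene SENP3-EIF4A1. The second pair sets the member that was detected most often, EIF3G, beside EIF3C, with the stop codon in capitals.

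EIF3G, minus strand, chr19:10115114-10115521, across an intron: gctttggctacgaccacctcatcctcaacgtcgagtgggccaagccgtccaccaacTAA

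EIF3C, plus strand, chr16:28735455-28735513: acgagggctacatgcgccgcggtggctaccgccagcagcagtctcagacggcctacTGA

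The EIF3G bases were found in the transcripts of no other gene, whereas those of EIF3C stood also in its copy EIF3CL. Over whole transcripts, 100% of the 59-base windows of EIF4A1 and 96.5% of those of EIF3C occurred in another gene, against 42.1% for EIF3F, 39.4% for EIF3L and 0.0% for EIF3G. How reads that match several genes were counted is not given in the sources used here, and the part of shared sequence in the values was not tested. The 44 rows whose symbols name pseudogenes of the family held 496 counts in dT and 242 in Bio, against 61913 and 39524 counts for the 37 members.

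In-screen libraries entered the comparisons with at least 1000 detected genes and at most 15% mitochondrial counts, which kept 48 of 48 dT libraries (127042 to 759756 counts) and 44 of 48 Bio libraries (81806 to 780143 counts). The 4 Bio libraries left out included the 3 with Imatinib_Imatinib. The separate controls held 256671 to 458945 counts in dT and 35742 to 89347 in Bio. Mitochondrial counts made up 10.2% to 36.9% of the separate dT controls and 5.1% to 28.1% of the Bio ones, against 2.7% to 7.3% and 2.4% to 6.9% in the droplet libraries. All 12 erythroid markers checked had counts in both screens, with summed levels of 13436 to 86177 CPM in dT and 9233 to 55878 in Bio. Of the markers of other cell types, 1 of 2 for T cells had counts in each screen (CD3E had none), with sums from 0 to 666 CPM in dT and 0 to 1977 in Bio. For B cells it was 1 of 3 in dT and 2 of 3 in Bio (MS4A1 had none), with sums up to 12.9 and 191 CPM. Both epithelial markers (24.8 to 475 and 28.1 to 501 CPM) and both fibroblast markers (0 to 436 and 0 to 1968 CPM) had counts, and their part in the results was not tested.

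Detection of the initiation factor genes ranged from complete to none, and 33 of the 37 were detected in a larger share of dT than of Bio libraries. The share of all genes that did so was not computed. The dT libraries were deeper, with a median of 350752.5 counts against 238673 in Bio. EIF3G, the g subunit of eIF3, was counted in 48 of 48 dT libraries and in 37 of 44 Bio libraries. EIF4EBP1, the EIF4E inhibitor, followed in dT with 44 of 48 libraries and had a count in 22 of 44 in Bio. EIF4B, a cofactor of the helicase, was found in 87.5% of dT libraries, EIF1B and EIF3A in 85.4% each, and EIF2S3, the gamma subunit of eIF2, in 83.3%. The median member was detected in 45.8% of dT libraries and 22.7% of Bio libraries, where the median gene with any count was at 6.25% and 4.55%. At least 50% of the libraries held a count for 17 members in dT and 5 in Bio. Of the genes with any count, 2187 of 19688 reached this in dT and 924 of 15694 in Bio.

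At the other end, EIF4A1 had 0 counts in the 16462019 counts of the dT libraries and 0 in the 11320349 of Bio, which allows up to 0.182 and 0.265 CPM (a count scaled to the total of its library), taking 3 counts over each group and counting error only. Its read-through partner SENP3-EIF4A1 had 0 counts in dT and 19 in Bio, all in 1 library. EIF3C had 1 count in dT and 0 in Bio, and its copy EIF3CL 1 and 0. EIF2B1, the alpha subunit of eIF2B, had 1 count in dT and 0 in Bio, and another gene, DDX55, overlaps 89.3% of the last 600 bases of its transcript. EIF4E, the cap-binding protein, had 1 count in dT and 2 in Bio, and EIF4E2, its relative, 27 and 0. EIF4A2 was found in 4 dT and 3 Bio libraries. REV1 overlaps 100% of the same stretch of EIF5B, which was detected in 66.7% of dT libraries. The part of such overlaps in detection was not tested. The members without another gene over more than 50% of their end, and with at most 90% of their windows shared, numbered 31 and spanned 2.08% to 100% detection in dT. These 2 cut-offs were set after the values had been seen.

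**Figure D1:**
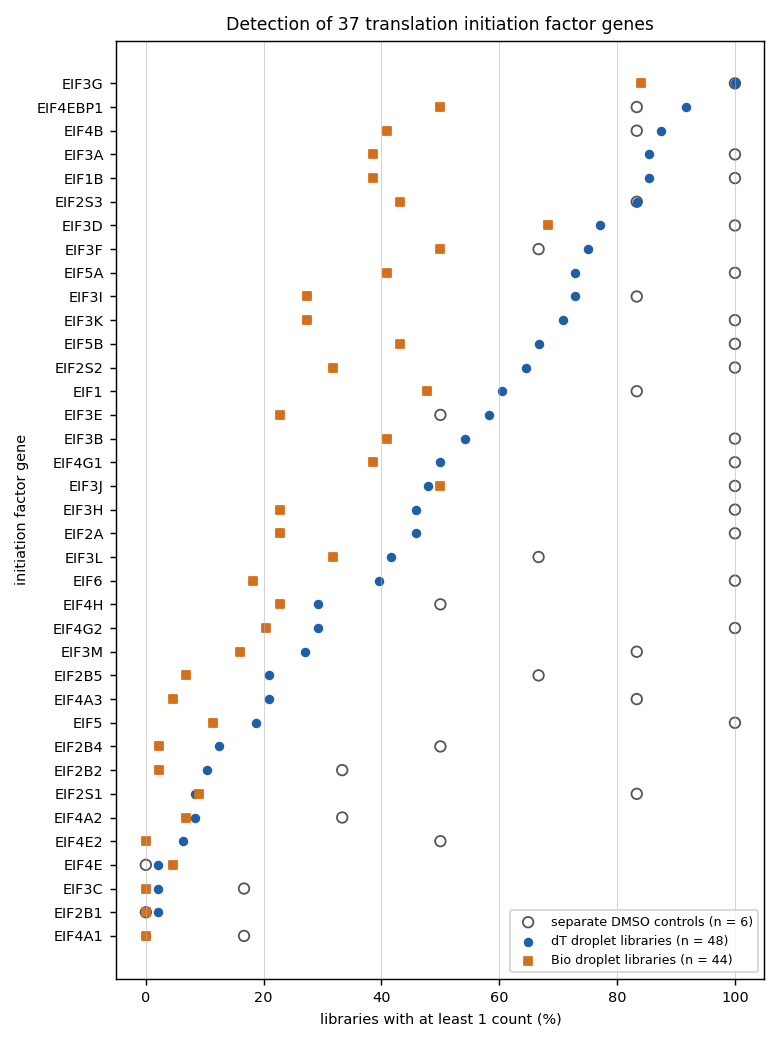
Percent of libraries with at least 1 count (x axis) for each of the 37 initiation factor genes (y axis), in dT droplets (blue circles), Bio droplets (orange squares) and the 6 separate DMSO controls (open circles). EIF3G stands at 100% in dT, while EIF4A1, EIF2B1, EIF3C and EIF4E lie at or near 0.

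Counts came in very different sizes even for one gene. Of the 804 member values above 0 in dT, 22.0% were of 1 to 3 counts and 54.0% were above 30 counts, and in Bio the shares were 32.3% and 47.0% of 434 values. No step that counts molecules is described, so 1 captured molecule may stand for many reads. The 5 highest libraries held a median of 49.4% of the counts of a tested member in dT and 84.3% in Bio, against 66.8% and 76.7% for all genes tested. The biological coefficient of variation that edgeR estimated had a median of 2.10 over tested members in dT and 3.34 in Bio, against 2.79 and 3.29 over all genes tested. Among members it was lowest for EIF3G, with 0.884 in dT and 1.80 in Bio.

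On the level scale, EIF3G had 694 ± 705 CPM in dT (SD, n = 48) and 709 ± 944 CPM in Bio (SD, n = 44). Its lowest, median and highest values were 14.8, 456 and 4316 CPM in dT and 0, 237 and 3334 CPM in Bio. EIF4EBP1 ran from 0 over a median of 85.6 to 906 CPM in dT, and from 0 over 0.641 to 1653 CPM in Bio. Per kilobase of transcript, the mean level in dT was highest for EIF3G (629 CPM per kb), followed by EIF1B (415), EIF3K (236) and EIF4EBP1 (163). These libraries read mainly the 3′ ends of mRNAs, where length matters less. The SD among libraries of each of these 4 genes was larger than its mean, and the order was not tested.

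Together the 37 genes took 0.368 ± 0.144% of the counts of a dT library (SD, n = 48) and 0.353 ± 0.188% in Bio (SD, n = 44). The 13 eIF3 subunits made up 0.209 ± 0.121% in dT and 0.201 ± 0.162% in Bio. The factors of cap binding and unwinding took 0.0454% and 0.0431%, those of start codon selection 0.0563% and 0.0528%, and eIF2 with eIF2B 0.0335% and 0.0305%. In dT the summed share was 0.348 ± 0.114% with YM115 (n = 21) and 0.383 ± 0.165% without (n = 27). It was 0.382 ± 0.184% with Imatinib and 0.357 ± 0.107% without, and 0.362 ± 0.0990% with Trametinib and 0.372 ± 0.174% without. Each of these differences was smaller than the SD among libraries. In Bio the shares were 0.317 ± 0.185% with YM115 (n = 21) and 0.385 ± 0.188% without (n = 23), again within the SD. The SD among libraries is no test of a difference in means, and none of these differences was tested.

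The number of members seen in 1 library was 7 to 25 in dT, with a median of 16.5, and 4 to 21 in Bio, with a median of 9. In DMSO_DMSO droplets it was 11, 13 and 14 in the 3 dT libraries and 4, 5 and 7 in Bio, near the lower end of each screen. These libraries were also shallow, with 174365 to 198316 counts in dT and 81806 to 147320 in Bio. The medians of the screens were 350752.5 and 238673 counts. In the separate DMSO controls, 28, 31 and 33 members had a count in dT and 24, 25 and 25 in Bio, above every droplet library of the same screen. Depth ran the other way in Bio, where the separate controls had fewer counts than most droplet libraries. At a fixed total of 35000 counts the expected number was 23.3 ± 3.86 in the separate dT controls and 10.2 ± 0.582 in DMSO_DMSO (SD, n = 3 each), and 22.2 ± 2.64 and 3.62 ± 0.628 in Bio. The groups did not overlap in either screen, and the two-sided exact permutation test gave p = 0.1, the smallest that 3 libraries against 3 allow. All genes went the same way, with a mean of 5100 genes expected at that total in the separate dT controls and 1844 in DMSO_DMSO, and 5546 and 877 in Bio.

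**Figure D2:**
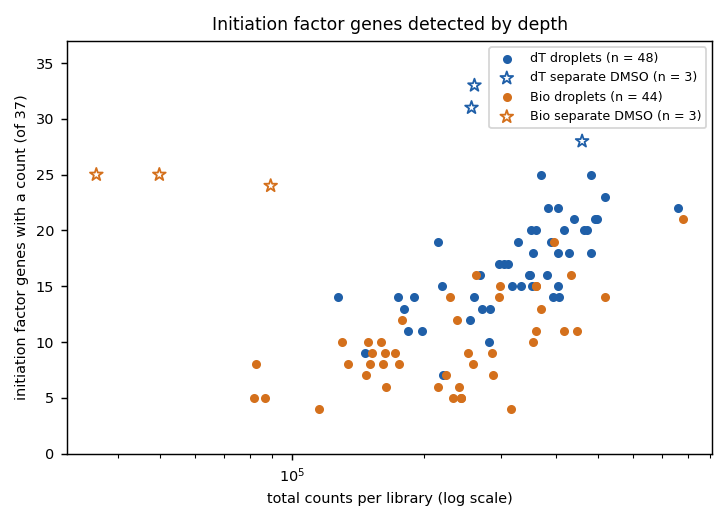
Number of the 37 initiation factor genes with a count (y axis) against the total counts of the library (x axis, log scale), for dT (blue) and Bio (orange) droplet libraries (points) and separate DMSO controls (stars). The separate controls hold 24 to 33 members, and the droplet libraries 4 to 25.

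The first question was which members changed with each drug, compared between all libraries of a screen with and without it. In dT, 25 of the 37 members passed the low-count filter, and the 12 others were EIF3M, EIF2B1, EIF2B2, EIF2B4, EIF2B5, EIF5, EIF2S1, EIF3C, EIF4A1, EIF4A2, EIF4E and EIF4E2. With YM115, 2 of the 25 were called, 1 higher and 1 lower, where 2.62% of all 3930 genes tested were called. With Imatinib and with Trametinib 0 of 25 were called in edgeR's quasi-likelihood test, against 2.88% and 1.37% of all genes. DESeq2 called 0 of the 23 members with an adjusted p for either drug, where it called 5.14% and 3.32% of all genes with one. At an unadjusted p under 0.05 there were 3 members for Imatinib and 1 for Trametinib, against 13.9% and 12.6% of all genes.

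EIF4A3, the exon junction helicase whose coding end is printed above, was counted in 10 of 21 dT libraries with YM115 and in 0 of 27 without it. Its values with YM115 ran from 0 over a median of 0 to 522 CPM. In run 1 the counts were 115 in DMSO_YM115, 85 in YM115_DMSO, 208 in YM115_Imatinib, 73 in YM115_YM115 and 1 in Trametinib_YM115. In run 2 they were 116 in YM115_Trametinib, 50 in YM115_YM115 and 12 in Trametinib_YM115, and in run 3 there was 1 count each in Trametinib_YM115 and YM115_Trametinib. The counts lay in 6 of the 7 pairs with YM115, Imatinib_YM115 having none, and every run had some. Pooled over libraries, EIF4A3 was at 82.8 CPM with YM115. Taking 3 counts over the group without it, the ratio was 234-fold, which bounds counting error of independent reads only. As 1 captured molecule may stand for many reads, it is no bound for the spread among libraries. The fitted change was 6.37 ± 1.10 on the log2 scale (SE, adjusted p = 0.00105), and the mean was higher in 3 of 3 runs. The gene passed the low-count filter through the libraries with YM115 alone, so that its being tested already required a difference. The adjusted p was 0.0905 with DESeq2, and the gene was not tested when run 1, run 2 or the run block was left out. In the separate dT controls, which had no drug, EIF4A3 was at 26.1, 93.5 and 495 CPM, whereas the 3 DMSO_DMSO droplet libraries had none.

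EIF4H, a cofactor of the EIF4A helicases, went the other way. It was counted in 3 of 21 dT libraries with YM115, with at most 3 counts and 7.42 CPM, and in 11 of 27 without, with up to 34 counts and 236 CPM. The medians were 0 CPM in both arms, and the ranges overlapped. The fitted change was -4.13 ± 1.17 on the log2 scale (SE, adjusted p = 0.0408), and its mean was lower in 2 of 3 runs. With at most 3 counts in any library with YM115, the gene passed the low-count filter through the libraries without it, so that its being tested, too, already required a difference. Over 8 alternatives in which it was tested the adjusted p ran from 0.00542 to 0.668, the highest without run 3, and DESeq2 gave 0.163. EIF4H also had the second smallest p of the members for Imatinib (log2 change -2.31 ± 0.963, adjusted p = 0.226). Its group means ran against that sign, at 18.4 CPM with Imatinib and 8.93 without. It had the smallest p for Trametinib (-2.26 ± 0.974, adjusted p = 0.297). EIF3L, the l subunit of eIF3, had the smallest for Imatinib, with 2.71 ± 1.04 and an adjusted p of 0.181.

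**Figure D3:**
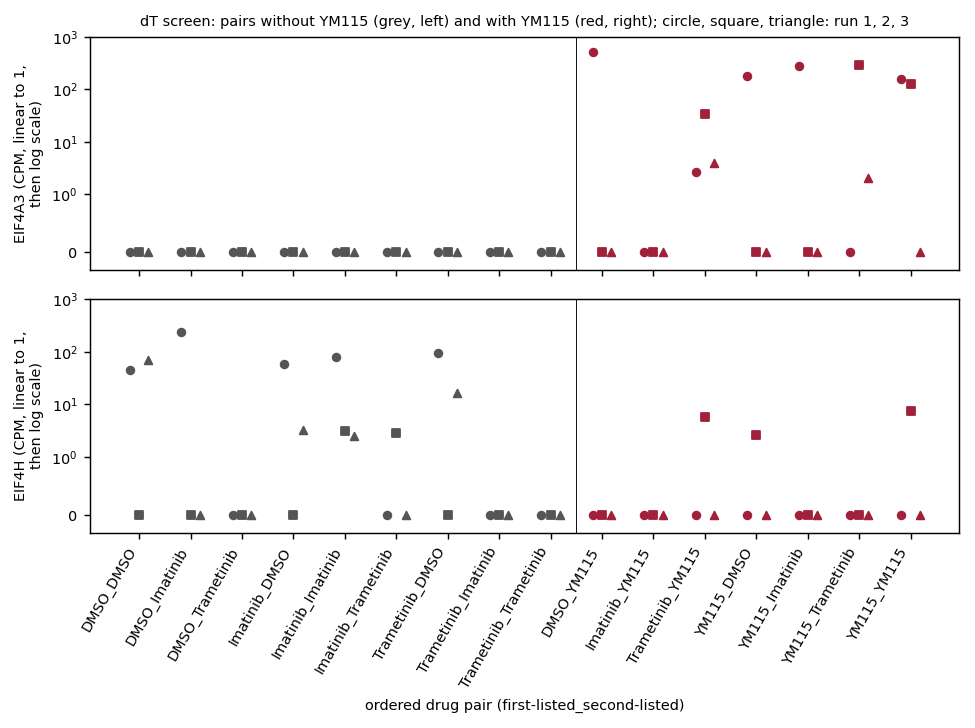
CPM of EIF4A3 (top) and EIF4H (bottom) in each of the 48 dT libraries (y axis, linear to 1 and then logarithmic) by ordered drug pair (x axis), with 9 pairs without YM115 in grey and 7 pairs with it in red, and the runs as circles, squares and triangles. EIF4A3 is at 0 in all 27 libraries without YM115 and reaches 522 CPM with it, while EIF4H reaches 236 CPM without YM115 and 7.42 CPM with it.

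EIF3G had the lowest variation of the tested members. With YM115 its dT level ran from 118 over a median of 352 to 1136 CPM, and without from 14.8 over 574 to 4316 CPM. The change was -0.65 ± 0.42 on the log2 scale (adjusted p = 0.519), and the mean was lower with YM115 in 3 of 3 runs. Imatinib gave 0.68 ± 0.45 (adjusted p = 0.549) and Trametinib 0.68 ± 0.42 (adjusted p = 0.546), each higher in 3 of 3 runs. None of these 3 changes passed the test.

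In Bio, 21 members passed the filter and 0 were called for any drug by edgeR, where 2.34% of 1754 genes were called for Imatinib, 1.94% for Trametinib and 2.74% for YM115. Without adjustment, 3, 4 and 6 members had a p under 0.05, against 14.99%, 12.4% and 16.0% of all genes. Of the 14 members with an adjusted p, DESeq2 called 0 for Imatinib, 2 for Trametinib (EIF4EBP1 and EIF3H) and 1 for YM115 (EIF3H). Of all genes with one it called 9.74% for Imatinib, 6.62% for Trametinib and 9.65% for YM115. EIF3K, the k subunit of eIF3, was nearest to the threshold. It had a count in 9 of 20 libraries with Trametinib, up to 3205 CPM, and in 3 of 24 without, up to 760 CPM. The change was 5.87 ± 1.67 on the log2 scale (adjusted p = 0.0502), higher in 3 of 3 runs. EIF3B, a core eIF3 subunit, had a count in 9 of 20 libraries with Trametinib and in 9 of 24 without. Its group means were 85.1 and 116 CPM, against the sign of the fit. The fitted log2 changes were 4.07 ± 1.45 for Trametinib (adjusted p = 0.135) and 3.60 ± 1.41 for Imatinib (adjusted p = 0.177). For YM115 the smallest p were those of EIF3H, at -7.67 ± 2.46 (adjusted p = 0.0776), and EIF6, at 4.06 ± 1.45 (adjusted p = 0.117). EIF3H turned to 2.75 without run 1. EIF4B had -3.57 ± 1.42 for Imatinib (adjusted p = 0.181).

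The median log2 change of the tested members in dT was -0.18 for Imatinib, 0.03 for Trametinib and 0.25 for YM115, beside 0.07, 0.23 and 0.21 for all genes tested. In Bio it was 0.34, 0.47 and 1.89, beside 0.12, 0.30 and 0.53. Positive and negative changes were 15 and 10 for YM115 in dT and 15 and 6 in Bio. These counts are over members that passed the filter and describe them only.

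**Figure D4:**
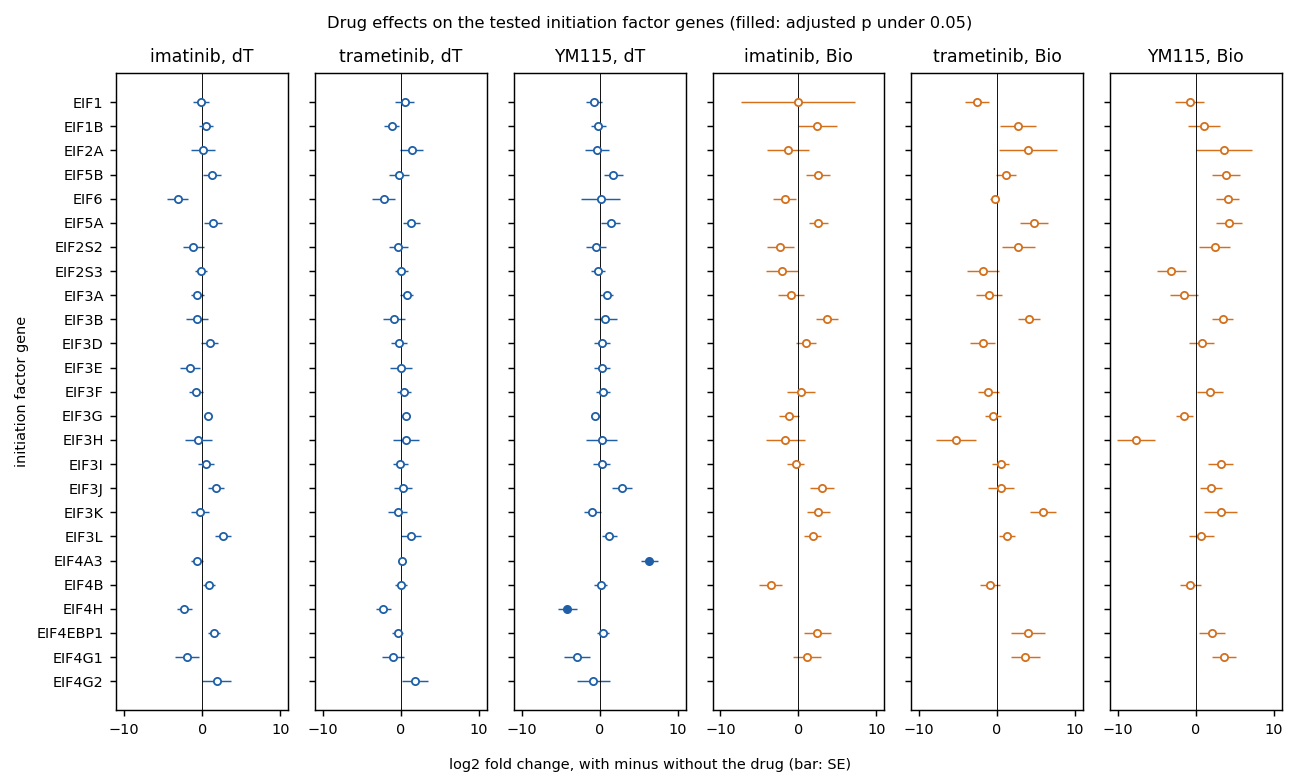
Log2 fold change with minus without each drug (x axis, bar: SE) for the members tested (y axis), in dT (blue, 3 panels) and Bio (orange, 3 panels), with filled points at an adjusted p under 0.05. EIF4A3 at 6.37 and EIF4H at -4.13 for YM115 in dT are the 2 filled points.

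The same drugs were listed in either order, which asks whether a drug acted alike in both positions. In Bio, 5 of 23 members tested were called for listed position, namely EIF3F, EIF3H, EIF2A, EIF3B and EIF4G1, where 21.1% of 2112 genes were called. In dT it was 1 of 25, EIF4G2, where 10.7% of 3930 genes were called. EIF3F, the f subunit of eIF3, had the lowest adjusted p in Bio (0.00408). It had 0 counts in all 11 Bio libraries with Trametinib second-listed, and a count in 4 of 12 with DMSO, 8 of 9 with Imatinib and 10 of 12 with YM115 second-listed. The medians were 0, 0, 59.6 and 196 CPM for Trametinib, DMSO, Imatinib and YM115. Listed first, Trametinib had EIF3F in 7 of 12 libraries with a median of 30.6 CPM, and Imatinib in 2 of 9 with at most 5.61 CPM. The first-minus-second terms were -7.06 for Imatinib, 4.80 for Trametinib and -2.26 for YM115 on the log2 scale.

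The call for EIF3F held in 9 of 10 alternatives and was lost without run 2 (adjusted p = 0.0572). In dT the same gene showed no such split. Second-listed Trametinib had EIF3F in 9 of 12 dT libraries with a median of 58.0 CPM, and the other 3 second-listed drugs in 8 to 10 of 12, with medians of 8.94 to 90.1 CPM (adjusted p = 0.890). In the separate dT controls EIF3F was at 17.4, 74.0 and 468 CPM, and in those of Bio at 0, 0 and 252 CPM, so that 2 of 3 Bio controls without a drug had none either. The low values with first-listed Imatinib in Bio came with a median of 10.0 members detected, and those with second-listed Trametinib with 8, against 9 over all 44 libraries.

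**Figure D5:**
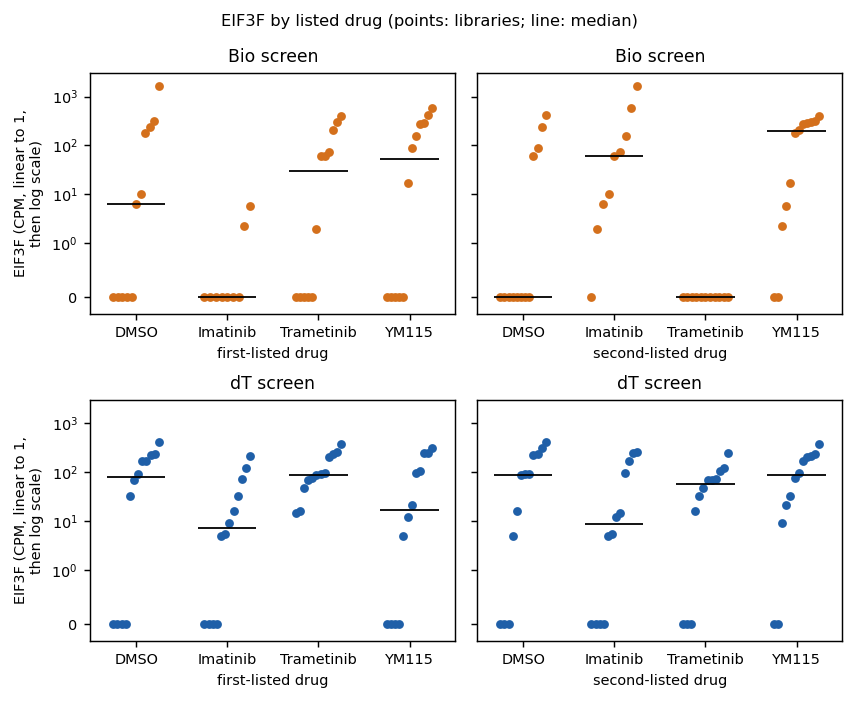
CPM of EIF3F (y axis, linear to 1 and then logarithmic) by first-listed drug (left) and second-listed drug (right) in Bio (top, orange) and dT (bottom, blue), 1 point per library in order of value and a line at the median. All 11 Bio libraries with Trametinib second-listed are at 0, while the 12 dT libraries with it have a median of 58.0 CPM.

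The other position calls rested on few libraries. In Bio, EIF3B had adjusted p = 0.0318 in the test of each drug first-listed against second-listed. First- and second-listed, it had a count in 6 of 9 and 4 of 9 libraries with Imatinib. It was 7 of 12 and 4 of 11 with Trametinib, and 4 of 12 and 8 of 12 with YM115. EIF4G1, the scaffold, had a count in 1 of 9 libraries with first-listed Imatinib and 7 of 9 with it second-listed (adjusted p = 0.0370). It was 4 of 12 and 5 of 11 with Trametinib, and 7 of 12 and 4 of 12 with YM115. EIF2A, which brings initiator tRNA outside eIF2, had a count in 5 of 12 with first-listed YM115 and 1 of 12 with it second-listed (adjusted p = 0.0102). It was 2 of 9 in either position with Imatinib, and 3 of 12 and 3 of 11 with Trametinib. EIF3H had adjusted p = 0.00955, with a count in at most 4 libraries of any listed drug. In dT, EIF4G2, a relative of the scaffold that lacks the cap-binding partner site, had adjusted p = 0.0192. It had a count in 7 of 12 libraries with second-listed DMSO and in 1 of 12 each with second-listed Trametinib and YM115. These EIF4G2 counts are of second-listed drugs only, 1 side of the contrast tested. DESeq2 called EIF3F alone of the 5 in Bio, where it called 0.734% of all genes, and gave no adjusted p for EIF4G2 in dT.

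Whether any pair differed from DMSO_DMSO was asked next. In dT edgeR called 0 of 31 members tested, where it called 0.303% of 6263 genes. In edgeR, 7 members had an unadjusted p under 0.05, against 48.4% of all genes. DESeq2 gave 14 of the 31 an adjusted p and called 0, where it called 8.98% of 1649 genes with one. In Bio 6 of 27 were called, EIF3H, EIF2A, EIF3K, EIF1B, EIF2S3 and EIF4EBP1, where 22.9% of 4888 genes were called, so that the members stood near the background. Their adjusted p ran from 0.00140 to 0.0326. DESeq2 called 0 of them, but also 0 of all 4888 genes. The fits without run 1, 2 or 3 called 0 members as well, where they called 0.41%, 0.167% and 0.482% of all genes. These zeros therefore do not set the members apart. The 5 highest libraries held 60.6% of the Bio counts of EIF4EBP1, 74.0% for EIF2S3, 84.0% for EIF1B, 88.4% for EIF2A, 93.4% for EIF3K and 96.3% for EIF3H. EIF1B, a close relative of EIF1, had 1046 counts (3504 CPM) in DMSO_Imatinib run 2 and 0 in its runs 1 and 3. It had 534 counts (2068 CPM) in Trametinib_DMSO run 1 and again 0 in the other two. EIF2A had 419 counts (2387 CPM) in run 3 of Trametinib_Trametinib and 0 in runs 1 and 2.

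Non-additive effects of drug pairs were called for 1 of 31 members in dT, where 9.77% of 6263 genes were called, and for 3 of 25 in Bio, where 14.0% of 3429 were. The dT gene was EIF2S1, the alpha subunit of eIF2 whose phosphorylation halts initiation under stress (adjusted p = 0.0458). It had counts in 4 of 48 dT libraries, with 60 in Imatinib_YM115 run 1, 55 in Trametinib_Trametinib run 1, 46 in YM115_Imatinib run 2 and 46 in YM115_Trametinib run 1. No DMSO-containing pair had any. In Bio, EIF2S1 (adjusted p = 0.0274) had counts in 4 of 44 libraries, EIF6 (0.0208) in 8 and EIF2A (0.0424) in 10. EIF6 stood highest in YM115_Trametinib, with 4.12, 936 and 426 CPM in runs 1 to 3. DESeq2 called 0 members in either screen, with no adjusted p for EIF2S1 in dT. It called 1 of 4226 genes in dT and 0 of 2034 in Bio. The fits that left out 1 run called 0 members and 0.0% of all genes. These zeros therefore do not set the members apart.

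The drug effects of both screens were set against each other in 1 fit of 92 libraries. Of 29 members tested 2 were called, EIF4A3 and EIF5, where 26.3% of 4705 genes were called. EIF4A3 had adjusted p = 0.000721. Of the 21 Bio libraries with YM115, 1 had it, with 1 count in Imatinib_YM115 run 1, and its other Bio value was 510 counts in Trametinib_Imatinib run 1. DESeq2 gave no adjusted p for EIF4A3 or EIF5 in this test. EIF5, the GTPase activator of eIF2, had adjusted p = 0.0407. Its 580 counts in Trametinib_Trametinib run 1 made up most of its 701 counts in Bio, and 295 of its 352 counts in dT were in libraries with YM115 first-listed.

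Summed per run over the 14 pairs passing in all 6 runs, edgeR called 0 of 29 members between screens, against 0.0446% of 6724 genes. DESeq2 also called 0 of the 29, where it called 3.96% of 5711 genes. In edgeR, 1 of the 29 members had an unadjusted p under 0.05, against 6.90% of all genes. That member was EIF3A, the largest eIF3 subunit, at 513, 280 and 504 CPM in dT and 135, 93.8 and 42.4 CPM in Bio. The change was 2.12 ± 0.575 on the log2 scale (SE, adjusted p = 0.30). EIF3G was at 570, 646 and 864 CPM in dT and 702, 625 and 689 in Bio, overlapping. Of the summed runs, 31 to 34 members had a count in dT and 26 to 30 in Bio.

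Between the separate controls and DMSO_DMSO droplets, edgeR called 0 of 32 members in dT and 0 of 29 in Bio, where 0.116% of 6917 and 0.0487% of 6158 genes were called. Without adjustment, 7 and 4 members had a p under 0.05, against 16.1% and 10.0% of all genes. DESeq2 called 4 of the 27 members with an adjusted p in dT and 9 of 27 in Bio, where it called 11.7% and 18.5% of all genes with one. The median log2 change of the members was 3.36 in dT and 5.81 in Bio towards the separate controls, beside 3.39 and 5.34 for all genes tested. EIF3B was at 148, 173 and 538 CPM in the separate dT controls and had the smallest p there (log2 change 10.5 ± 4.08, adjusted p = 0.296). EIF5B, which joins the ribosomal subunits, had it in Bio, at 301, 347 and 588 CPM (11.1 ± 4.64, adjusted p = 0.327). EIF4A1 had 0 counts in the separate dT controls and 2 counts in 1 of the 3 Bio ones, and EIF4E had 0 in all 6.

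Of 38 other genes of the pathway, 14 were tested in dT and 10 in Bio for drug effects, and 0 were called for any drug. In the other tests their shares of calls stood beside 21.1% of all genes for listed position, 22.9% for any pair, 14.0% for interaction and 26.3% for drug by screen, the first 3 in Bio, and 9.77% for interaction in dT. The listed position calls in Bio held 2 of 13, EIF4EBP2, a relative of EIF4EBP1 (adjusted p = 0.000260), and EIF1AX, a scanning factor (0.0194). Any difference among pairs was called in Bio for 3 of 18, RPS6KB2, a ribosomal S6 kinase (0.0230), MKNK2, a kinase of EIF4E (0.0410), and CDC123, an assembly factor of eIF2 (0.0445). Interaction was called for PAIP1 in dT (0.0455), 1 of 21, and in Bio for 3 of 16, MTOR (0.0208), RPS6KB2 (0.0216) and PABPC4 (0.0385). Drug effects differed by screen for 3 of 19, CDC123 (0.00121), EIF2AK1, the haem-regulated eIF2 kinase (0.00163), and EIF4G3 (0.0171). DESeq2 made none of these 12 calls and gave no adjusted p for 5 of them. It called 0.734% of all genes for listed position and 0.0% for any pair and for interaction in Bio. For interaction in dT it called 0.0237%, and for drug by screen 0.63%.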

How the data were processed

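Barcoded cDNA from pools of K562 droplets was fragmented with Tn5 and sequenced, and the authors deposited raw counts per gene for each library, without normalisation. The submitters' processing notes name STAR 2.4.2a and GRCh38, while annotation, strand setting and use of molecular identifiers are not given in the sources used here. The members and gene lists were chosen with earlier results of these data known. Total counts are given beside the results and limit precision, and intervals cover counting error only. The columns of the deposited sample sheet were not used, and 0 columns belonged to other samples. In-screen libraries with under 1000 detected genes or over 15% mitochondrial counts were left out, and separate controls were exempt. Each screen was fitted over all genes with edgeR 4.0.16 in R 4.3.3 (TMM, filterByExpr, glmQLFit, glmQLFTest) with Benjamini-Hochberg adjustment and a threshold of 0.05, and tests are two-sided in effect. The SE of a change was its size over the square root of F. Run was a block because a replicate number marks 1 pass of the whole process. Residuals from the mean of a pair had a mean r of 0.0254 in dT and 0.0327 in Bio within a run. Across runs it was -0.0127 and -0.0163. Such residuals cancel over the runs of a pair, so the across-run values follow from the within-run ones and lend the block no support. Only the drug fit was run on simulated counts, and the other fits were not. The simulated variation was set below that estimated for any tested member, so the outcome does not carry over to these libraries. Of 102 replicate pairs 0 were identical. Alternatives were DESeq2 1.42.0 size factors and test, TMMwsp, other filters, all libraries kept, no block, both orders summed and each run left out. A member was named when called in a comparison, when counted in at least 90% of a screen's libraries, or when among the 2 smallest p of a drug in a screen. The members with counts near 0, and EIF3A and EIF5B, were named after their values had been seen. Annotation came from GENCODE release 29 (37 of 37 members matched). Expected detection at 35000 counts was computed exactly.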

Additional observations from a re-analysis of the deposited data

Results flagged for a closer look

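The effect of the drugs on EIF4A3 differed between the 2 screens (adjusted p = 0.000721, a joint test of the 3 drug-by-screen terms in edgeR). The gene was counted in 10 of 21 dT libraries with YM115 and in 0 of 27 without, and in Bio in 1 of 21 with YM115 and 1 of 23 without. It passed in each of the 6 alternatives that gave it an adjusted p, from 0.000362 to 0.00569, but was not tested without run 1, and DESeq2 gave NA. Since nearly all libraries with the gene were dT libraries with YM115, its being tested already required a difference, and these values are no sign of stability.

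The effect on EIF5 also differed between the screens (adjusted p = 0.0407), with counts in 9 of 48 dT and 5 of 44 Bio libraries. It passed in 5 of the 6 alternatives that gave it an adjusted p and had 0.149 with no filter on low counts. In this joint test 26.3% of all genes were called. The part of single high libraries in either difference was not tested.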

How the results depend on the processing

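Counts of called members were compared with those given above, each alternative changing 1 choice, and where they moved the cause was not tested. With no filter on low counts they were 1 for Trametinib, 2 for any pair, 3 for listed position and 0 for interaction in dT, 1 each for Trametinib and YM115 and 3 for listed position in Bio, and 4 for drug by screen, where 2.38%, 5.09%, 7.27%, 1.95%, 1.16%, 1.29%, 3.09% and 9.04% of all genes were called. With genes counted in at least 50% of libraries they were 0 for YM115, listed position and interaction in dT, 0 for any pair and interaction and 1 for listed position in Bio, and 0 for drug by screen, with fewer genes tested by construction. In that order 0.64%, 0.914%, 0.0457%, 0.216%, 0.0%, 0.866% and 0.278% of all genes were called. With the DESeq2 test they were 0 for YM115, listed position and interaction and 4 for the separate controls in dT. There 4.91%, 1.2%, 0.0237% and 11.7% of all genes were called. In Bio they were 2 for Trametinib, 1 for YM115, 0 for any pair, 1 for listed position, 0 for interaction and 9 for the separate controls. There 6.62%, 9.65%, 0.0%, 0.734%, 0.0% and 18.5% of all genes were called. For drug by screen it was 0, where 0.63% of all genes were called, with an adjusted p given as NA for 10 of 29 members. With no replicate block on the run they were 0 for YM115, 6 for any pair and 2 for interaction in dT, and 13 for any pair and 5 for interaction in Bio, where 0.751%, 35.8%, 16.2%, 70.7% and 23.9% of all genes were called. The block moved no other count by over 1.5 times. With both orders summed they were 1 for YM115 and 0 for interaction in dT and 0 for interaction in Bio. There 1.37%, 0.0% and 0.0% of all genes were called. With TMMwsp scaling there was 1 for Trametinib in Bio, and with all libraries kept 1 each for Trametinib and YM115, 11 for any pair and 5 for interaction in Bio, where 2.0%, 3.31%, 4.75%, 43.1% and 22.7% of all genes were called. Leaving out 1 run at a time gave 0 to 1 for YM115 and for listed position in dT, 0 for interaction in both screens and for any pair in Bio, 0 to 2 for listed position in Bio, and 1 to 6 for drug by screen, the 6 without run 2, where 18.2% of all genes were called. In that order these fits called 1.09% to 1.84%, 3.94% to 6.29%, 0.0%, 0.167% to 0.482%, 0.449% to 6.78% and 18.2% to 20.3% of all genes. Each named log2 change was refitted in each alternative that tested it. Of these refits 3 changed sign, all in Bio. Without run 1 they were EIF3H for YM115 at 2.75 and EIF3G for Trametinib at 0.178 (range over runs left out -0.912 to 0.178). Without run 3 it was EIF3G for Imatinib at 0.125 (range -1.847 to 0.125). A further 141 refits kept direction and side of the threshold, 5 no longer passed and 6 newly passed, among them EIF3K for Trametinib in Bio. Of the named changes only EIF4A3 and EIF4H for YM115 in dT had passed at first. The 141 are therefore mostly changes that did not pass in either fit, and are no sign of stability. At the fixed total, the mean number of members detected in dT was 12.4, against 16.8 at full depth. Low depth and counts held in few libraries limit each single gene.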
